A study of Mus musculus with 12 samples.

Results

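Lipid droplet, lipin and lipase genes were followed in mouse liver, 10 in all: the droplet proteins Cidea, Cideb and Cidec, the lipase Pnpla2 with its inhibitor G0s2, the related Pnpla3, the phosphatidate phosphatases Lpin1 and Lpin2, and lipoprotein lipase (Lpl) with its inhibitor Angptl4. They were chosen with earlier results of these data known, and their probes were picked by symbol. Of the 41174 probes of the array, 18 carry one of these 10 names or an older synonym. All 10 genes, of 27774 in all, were bright enough to be tested, and so were 18703 genes of the whole array. The brightness filter asked that a gene's probe be well above background in every one of the 3 livers of some group.

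The livers came from male C57BL/6 mice aged 8 to 10 weeks, and every mouse, the controls included, had been adrenalectomized. The 4 groups of 3 mice each were HESKOL mice given dexamethasone, HESKOL mice left untreated, wild-type (WT) mice given dexamethasone and WT mice left untreated. Dexamethasone, a synthetic glucocorticoid, was injected into the peritoneum at 1 mg/kg, and the liver was collected 6 h later. No vehicle injection is described for the untreated mice, and the labels do not spell out the HESKOL allele beyond calling it a knockout, nor the driver of any deletion; the study's title names Hes1. Levels are given below as log2 signal relative to the 75th percentile of the same array, so that 0 is the brightness that 75% of spots do not exceed; levels of different probes are not comparable.

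Neutral lipid is stored in droplets inside the cell. Lipins turn phosphatidate into diacylglycerol, the precursor of triglyceride. CIDE proteins sit on the droplet surface and let small droplets fuse into larger ones. Stored triglyceride is then opened by adipose triglyceride lipase, the product of Pnpla2, which the small protein G0S2 inhibits. In plasma, lipoprotein lipase releases fatty acids from circulating triglyceride, and ANGPTL4 inhibits it. Glucocorticoids are known to act on fat storage in liver and on lipolysis in adipose tissue.

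Hes1 itself, as the check on the genotype labels, was lower in HESKOL than in WT livers by a log2 difference of -1.10 (SE 0.43) after dexamethasone and -1.12 (SE 0.43) without it. The groups did not overlap in either case, but neither difference passed the threshold across all genes (limma adjusted p = 0.249 and 1.00). The difference after dexamethasone was -0.57 without WT dexamethasone replicate 1 and -0.40 within slide 3; without dexamethasone it was -0.93 within slide 1. One array stood apart. In WT dexamethasone replicate 1 the genes deviated from the mean of the group's other 2 livers by 0.994 (log2, root mean square). On the other 11 arrays this deviation was 0.463 to 0.798. The 12 arrays lay on 3 slides. WT dexamethasone replicate 3 and all HESKOL dexamethasone livers were on slide 3, which was scanned on another day, WT dexamethasone replicates 1 and 2 and HESKOL untreated replicates 2 and 3 were on slide 2, and the remaining untreated livers were on slide 1. Treated and untreated livers of 1 genotype therefore never shared a slide, and the main values are also given with slide as a block. Only WT dexamethasone replicate 3 ties slide 3 to another slide through a shared group, and only HESKOL untreated replicate 1 so ties slide 1. The block values of each comparison thus rest on 1 or both of these livers.

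In HESKOL livers dexamethasone changed 7 of the 10 genes: Cidea, Cidec, Pnpla2, Lpin1 and Lpin2 rose, and G0s2 and Lpl fell (limma, Benjamini-Hochberg adjusted p under 0.05). Across all tested genes 7.83% passed this threshold, 3.63% higher and 4.2% lower. In 9 of the 10 genes, all but Cideb, the treated and the untreated HESKOL livers did not overlap, compared with 34.3% of all tested genes. The median log2 change of the 10 genes was 2.04, and that of all tested genes was -0.003. Because the 10 genes were chosen with earlier results known, the values of all tested genes are background and not an independent test. The plot of levels by group shows each liver.

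**Figure D1:**
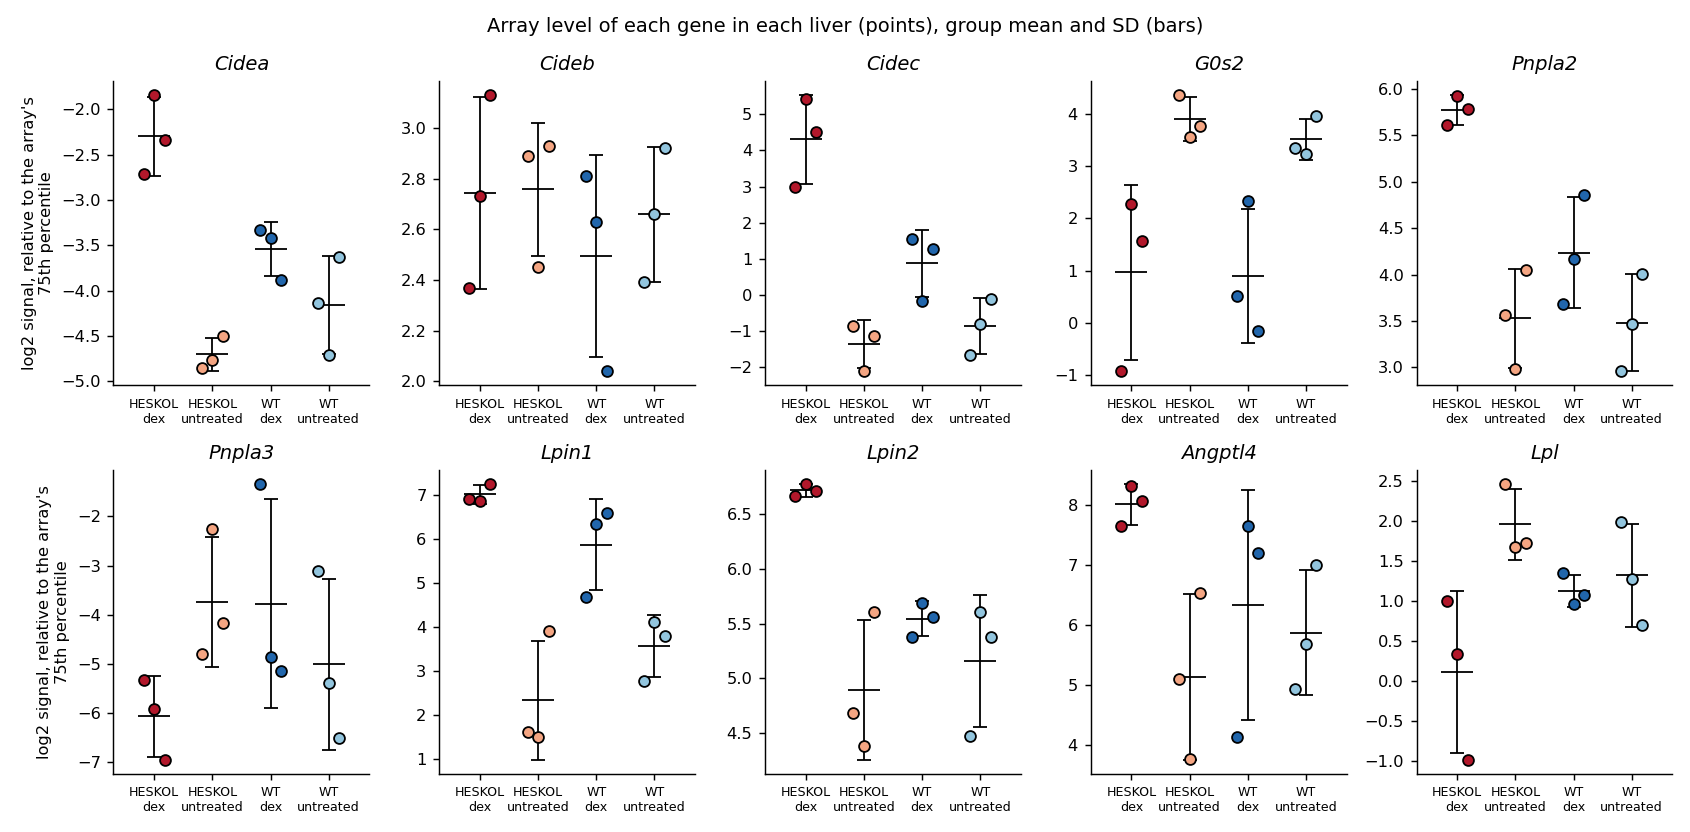
Log2 signal relative to the 75th percentile of the array (vertical axis, a separate scale for each gene) in each of the 12 livers, by group; points are single livers and the bars are the group mean and SD (n = 3). The 3 HESKOL dexamethasone livers lie above all other livers for Cidea, Cidec, Pnpla2, Lpin1 and Lpin2, and the treated livers of both genotypes lie below all untreated livers for G0s2.

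Among the droplet fusion genes, Cidec, which drives the growth of large droplets, had levels of 2.99, 5.44 and 4.50 in HESKOL dexamethasone livers, against -0.86, -2.12 and -1.13 in HESKOL untreated livers. All treated livers were far above all untreated ones, although the treated livers differed among themselves by more than the untreated ones did. The change was 5.68 on the log2 scale (SE 0.66), a 51.3-fold rise (limma adjusted p = 0.0019). Cidea, best known from brown fat, had levels of -2.71, -1.84 and -2.34 in HESKOL dexamethasone livers, against -4.85, -4.77 and -4.50 in HESKOL untreated livers. It rose 5.31-fold (log2 change 2.41, SE 0.31, limma adjusted p = 0.0025); its signal was low but well above background on all 12 arrays. With normexp background correction the Cidea change was smaller, 1.51, and no longer passed (limma adjusted p = 0.0588). Cideb, the member of this family that hepatocytes use when they load very low density lipoprotein, had levels of 2.37, 2.73 and 3.13 in HESKOL dexamethasone livers, against 2.89, 2.45 and 2.93 in HESKOL untreated livers. These groups overlapped, and the log2 change was -0.01 (SE 0.28, limma adjusted p = 0.982).

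For lipolysis inside the cell, Pnpla2 had levels of 5.61, 5.93 and 5.79 in HESKOL dexamethasone livers, against 3.56, 2.98 and 4.05 in HESKOL untreated livers. The treated livers lay close together and above every untreated liver, a rise of 4.75-fold (log2 change 2.25, SE 0.37, limma adjusted p = 0.0076). Its inhibitor G0s2 had levels of -0.93, 2.27 and 1.56 in HESKOL dexamethasone livers, against 4.37, 3.56 and 3.78 in HESKOL untreated livers. G0s2 fell 7.66-fold (log2 change -2.94, SE 0.78, limma adjusted p = 0.0432), with replicate 1 the lowest of the treated livers. This call was close to the threshold: it was lost in 9 of the 12 fits that left out 1 array, namely any array other than a WT dexamethasone one (log2 changes from -3.59 to -1.99), and in 4 of 11 other settings. Pnpla3, a droplet protein related to Pnpla2, had levels of -5.33, -5.91 and -6.95 in HESKOL dexamethasone livers, against -4.79, -2.26 and -4.17 in HESKOL untreated livers. The groups did not overlap, but the log2 change of -2.32 (SE 1.10) did not pass (limma adjusted p = 0.221), and the signal was dim, above background on 11 of 12 arrays.

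Of the lipins, Lpin1, whose product also acts in the nucleus as a coactivator of fatty acid oxidation genes, had levels of 6.92, 6.87 and 7.26 in HESKOL dexamethasone livers, against 1.61, 1.5 and 3.90 in HESKOL untreated livers. It rose 25.7-fold (log2 change 4.69, SE 0.66, limma adjusted p = 0.0041), and untreated replicate 3 stood above the other untreated livers. Lpin2, a second phosphatidate phosphatase found in liver, had levels of 6.67, 6.78 and 6.71 in HESKOL dexamethasone livers, against 4.68, 4.38 and 5.61 in HESKOL untreated livers. The treated livers had an SD of only 0.06, and the rise was 3.55-fold (log2 change 1.83, SE 0.35, limma adjusted p = 0.0129). The Lpin2 call was lost in 3 of the 12 fits with 1 array left out, those without HESKOL dexamethasone replicate 2 (1.79) and without HESKOL untreated replicate 1 (1.72) or 2 (1.57).

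For lipolysis in plasma, Lpl had levels of 1.00, 0.33 and -0.99 in HESKOL dexamethasone livers, against 2.47, 1.68 and 1.72 in HESKOL untreated livers. It fell 3.60-fold (log2 change -1.85, SE 0.48, limma adjusted p = 0.0396), and the groups did not overlap. The call was lost in 3 of 11 other settings and in 7 of the 12 fits with 1 array left out: HESKOL dexamethasone replicate 2 or 3, any HESKOL untreated replicate, WT dexamethasone replicate 2 or WT untreated replicate 2 (log2 changes from -1.99 to -1.30). Its inhibitor Angptl4 had levels of 7.64, 8.32 and 8.07 in HESKOL dexamethasone livers, against 5.09, 3.76 and 6.53 in HESKOL untreated livers. Every treated liver was higher, but the untreated livers were widely spread, and the log2 change of 2.88 (SE 0.92) missed the threshold (limma adjusted p = 0.0787). It passed in 4 alternatives, among them the fit without WT dexamethasone replicate 1, where limma's adjusted p was 0.0185.

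With slide as a fixed block, none of the 10 genes passed in HESKOL livers (limma adjusted p from 0.467 to 0.945), and neither did any other gene. The log2 changes were then 5.36 (SE 1.31) for Cidec, 2.84 (SE 0.60) for Cidea, 1.33 (SE 0.66) for Pnpla2, 3.24 (SE 1.21) for Lpin1, 1.69 (SE 0.70) for Lpin2, -1.13 (SE 1.44) for G0s2 and -1.52 (SE 0.93) for Lpl. The SEs were thus larger in each of these 7 genes. The changes of Cidec and Lpin2 moved little, that of G0s2 shrank most, and Cidea alone of the 7 had a larger one. In this fit the step from slide 2 to slide 3 was read only from WT dexamethasone livers, replicates 1 and 2 against replicate 3. Replicate 1 is the array that stood apart, so the block cannot cleanly separate slide from treatment.

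**Figure D2:**
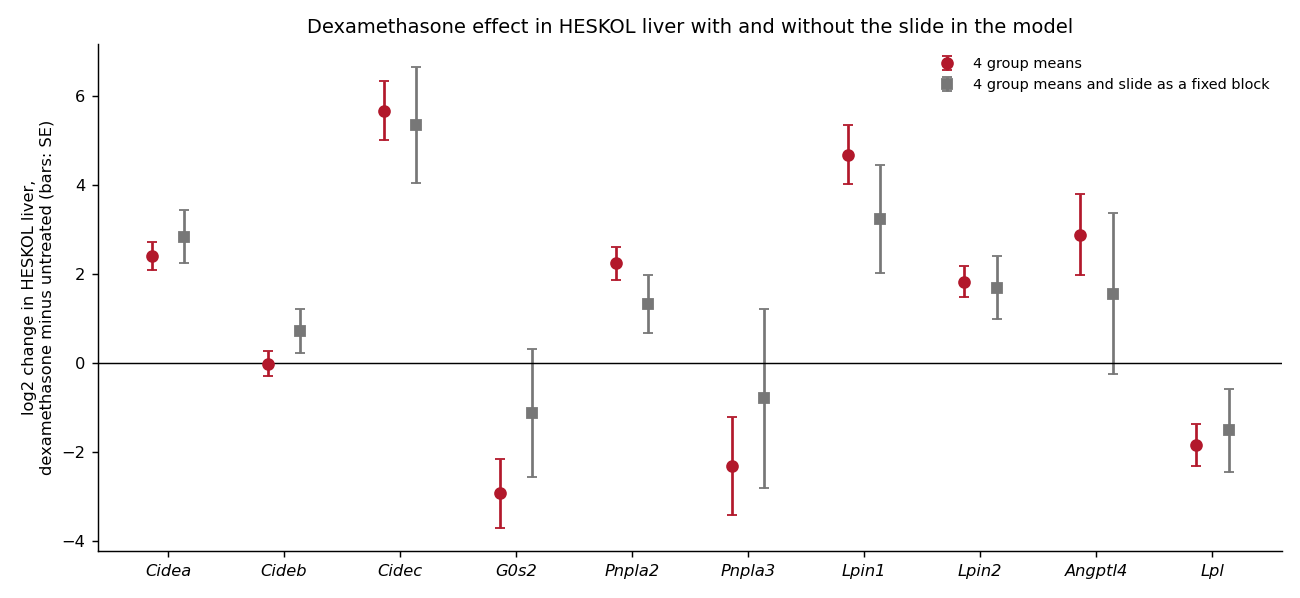
Log2 change in HESKOL liver, dexamethasone minus untreated (vertical axis), for each of the 10 genes with 4 group means in the model (circles) and with slide added as a fixed block (squares); bars are SEs. The change of Cidec is 5.68 and 5.36 in these fits and that of G0s2 -2.94 and -1.13, and the bars are longer with the block.

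In WT livers the same injection moved none of the 10 genes past the threshold, where 0.198% of all tested genes passed; 3 of the 10, Lpin1, G0s2 and Cidec, had an unadjusted limma p under 0.05, as did 11.8% of all tested genes. With slide as a block, 0 of the 10 did, against 3.26% of all tested genes. Treated and untreated WT livers did not overlap for 2 of the 10 genes, Lpin1 and G0s2, against 12.1% of all tested genes. The median log2 change of the 10 genes was 0.54, and that of all tested genes was -0.02.

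Lpin1 had levels of 4.68, 6.34 and 6.59 in WT dexamethasone livers, against 2.77, 4.12 and 3.79 in WT untreated livers. All treated livers were higher, replicate 1 least so, and the log2 change was 2.31 (SE 0.66, limma adjusted p = 0.219). Without WT dexamethasone replicate 1 it was 2.91 and passed (limma adjusted p = 0.0320); with slide as a block it was 0.86 (SE 1.21). G0s2 had levels of 0.51, 2.33 and -0.15 in WT dexamethasone livers, against 3.35, 3.24 and 3.97 in WT untreated livers. All treated livers were lower, with a log2 change of -2.63 (SE 0.78, limma adjusted p = 0.222), near the -2.94 found in HESKOL livers; with slide as a block it was -1.41 (SE 1.44). Cidec had levels of 1.54, -0.18 and 1.26 in WT dexamethasone livers, against -1.68, -0.81 and -0.12 in WT untreated livers. Its groups overlapped in 1 treated liver, and the log2 change was 1.74 (SE 0.66, limma adjusted p = 0.340).

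The other 7 genes overlapped between treated and untreated WT livers. Their log2 changes ran from -0.19 for Lpl to 1.23 for Pnpla3, with 0.62 for Cidea, 0.76 for Pnpla2, 0.39 for Lpin2, 0.46 for Angptl4 and -0.17 for Cideb. For 2 of them WT dexamethasone replicate 1 decided the value: the Pnpla3 change was 0.01 and the Angptl4 change 1.56 without it. That liver had the highest Pnpla3 level of all 12, -1.33, and the lowest Angptl4 level of the treated WT livers, 4.12 against 7.65 and 7.19.

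**Figure D3:**
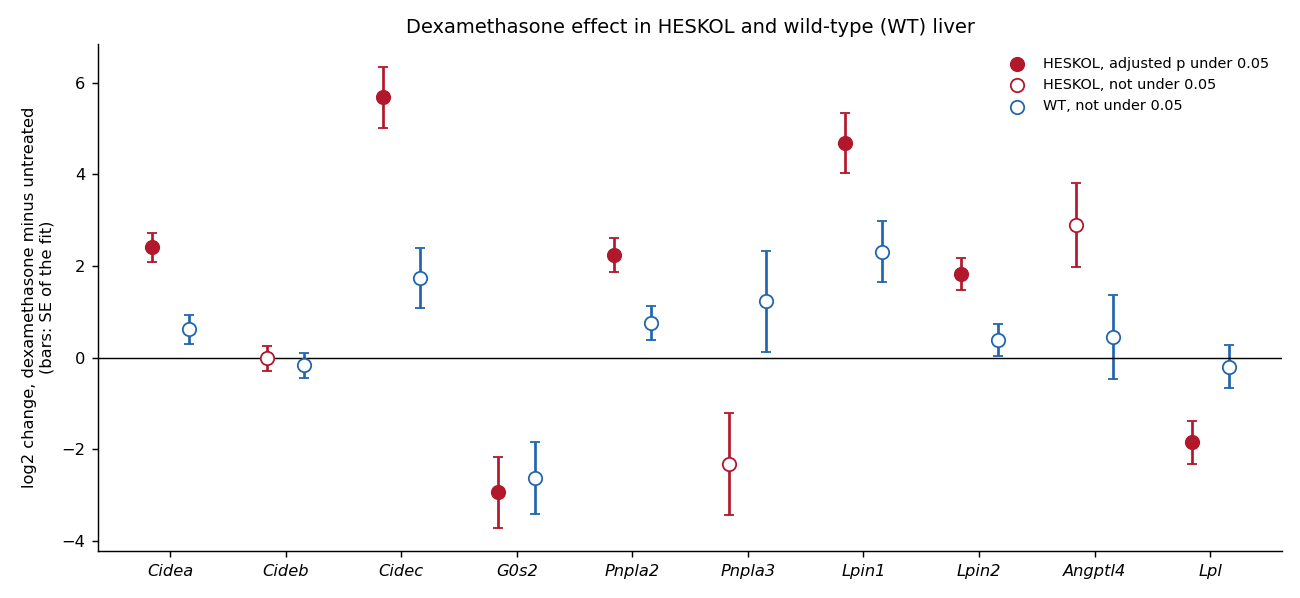
Log2 change with dexamethasone, treated minus untreated (vertical axis), for each gene in HESKOL (red) and WT (blue) livers; bars are SEs of the fit, filled points have a limma adjusted p under 0.05. The 7 filled points are all in HESKOL livers; the values of G0s2 are close in both genotypes, and those of Cidec are 5.68 in HESKOL and 1.74 in WT livers.

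The difference between the 2 dexamethasone effects was tested as an interaction. None of the 10 genes passed, where 0.016% of all tested genes did; 7 of the 10 (all but Cideb, G0s2 and Angptl4) had an unadjusted limma p under 0.05, as did 6.64% of all tested genes. With slide as a block that count was 1 of 10, Cidea, against 4.34% of all tested genes. Without WT dexamethasone replicate 1 it was 4 of 10 (Cidea, Cidec, Lpin2 and Pnpla2), against 8.24% of all tested genes. The effect on Cidec was larger in HESKOL than in WT livers by 3.94 on the log2 scale (SE 0.93, limma adjusted p = 0.352), and that on Cidea by 1.79 (SE 0.44, limma adjusted p = 0.376). The interaction was 2.38 (SE 0.94) for Lpin1, 1.49 (SE 0.52) for Pnpla2, 1.44 (SE 0.49) for Lpin2, -1.66 (SE 0.67) for Lpl, and -3.55 (SE 1.56) for Pnpla3, with limma adjusted p from 0.589 to 0.728. For G0s2 it was -0.31 (SE 1.10) and for Cideb 0.15 (SE 0.39). With slide as a block the interaction was 3.04 for Cidec, 2.28 for Cidea, 2.38 for Lpin1, 1.63 for Lpin2, -2.11 for Lpl, 0.83 for Pnpla2 and -1.13 for Pnpla3. The calls in HESKOL livers are therefore not shown to differ from the WT values in any of the 10 genes.

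After dexamethasone, the HESKOL and the WT livers differed in 1 of the 10 genes, Cidec, where 1.14% of all tested genes passed. Cidec averaged 4.31 ± 1.23 in HESKOL dexamethasone livers and 0.87 ± 0.93 in WT dexamethasone livers (SD, n = 3 each), a 10.8-fold higher signal (log2 difference 3.43, SE 0.66, limma adjusted p = 0.0393). Within slide 3, which holds the 3 HESKOL livers and 1 of the WT livers, the difference was 3.05. The call was lost in 4 of 11 other settings and in 9 of the 12 fits that left out 1 array, with HESKOL dexamethasone replicate 1, WT dexamethasone replicate 1 and WT untreated replicate 1 the exceptions, and limma's adjusted p over all of them ran from 0.0267 to 0.335. The 2 treated groups did not overlap for 6 of the 10 genes, against 18.3% of all tested genes: Cidea, Cidec, Pnpla2, Lpin1 and Lpin2 were higher in every HESKOL liver and Pnpla3 lower. Pnpla2 averaged 5.78 ± 0.16 in HESKOL dexamethasone livers and 4.24 ± 0.59 in WT dexamethasone livers (SD, n = 3 each, limma adjusted p = 0.0745). Its difference within slide 3 was 0.92. Without WT dexamethasone replicate 3 the difference between the treated groups was 1.85 and passed (limma adjusted p = 0.0441). That liver is the only treated WT one on slide 3, so without it genotype cannot be told apart from slide and scan day. Lpin2 averaged 6.72 ± 0.06 in HESKOL dexamethasone livers and 5.55 ± 0.16 in WT dexamethasone livers (limma adjusted p = 0.135), and its difference within slide 3 was 1.15. Cidea averaged -2.30 ± 0.44 in HESKOL dexamethasone livers and -3.54 ± 0.30 in WT dexamethasone livers (limma adjusted p = 0.0832), 1.59 apart within slide 3. For Lpin1 the difference of 1.15 (SE 0.66, limma adjusted p = 0.436) was 0.43 within slide 3 and 0.55 without WT dexamethasone replicate 1. Without that array the Pnpla3 difference was -1.07 (-2.29 with it) and that of Angptl4 0.59 (1.69 with it). For G0s2 the treated groups averaged 0.97 ± 1.68 in HESKOL and 0.90 ± 1.29 in WT livers.

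Without dexamethasone, none of the 10 genes passed between HESKOL and WT livers, and 0% of all tested genes did (297 genes had an unadjusted limma p under 0.05, none of the 10 among them). The untreated groups overlapped for each of the 10 genes, where 6.36% of all tested genes had groups that did not overlap. The largest differences were 1.26 (SE 1.10) for Pnpla3 and -1.23 (SE 0.66) for Lpin1 on the log2 scale, and the median over the 10 genes was -0.11, compared with 0.04 over all tested genes. Cidec averaged -1.37 ± 0.66 in HESKOL untreated livers and -0.87 ± 0.78 in WT untreated livers (SD, n = 3 each).

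Ordered by group mean, Cidea, Cidec, Pnpla2, Lpin1, Lpin2 and Angptl4 were all highest in HESKOL dexamethasone livers and next in WT dexamethasone livers. The untreated groups came last and overlapped each other, HESKOL above WT livers for Pnpla2 and below them for the other 5 genes. The WT dexamethasone livers overlapped the WT untreated livers in each of these genes except Lpin1, and for Angptl4 they also overlapped the HESKOL dexamethasone livers. G0s2 averaged 0.97 ± 1.68 in HESKOL dexamethasone, 3.90 ± 0.42 in HESKOL untreated, 0.90 ± 1.29 in WT dexamethasone and 3.52 ± 0.39 in WT untreated livers (SD, n = 3 each). For this gene the untreated groups were the highest, and overlap was seen only between groups of the same treatment. Lpl averaged 0.11 ± 1.01 in HESKOL dexamethasone, 1.96 ± 0.44 in HESKOL untreated, 1.13 ± 0.20 in WT dexamethasone and 1.32 ± 0.65 in WT untreated livers (SD, n = 3 each). Its highest and lowest groups were thus both HESKOL, and the WT groups lay between them and overlapped. Cideb had group means from 2.49 to 2.76, and all its groups overlapped.

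Of the 10 genes, 4 had more than 1 probe, which gives a second reading from the same RNA. The 4 Lpin1 probes, the outer pair of which start 894 bases apart on the mm7 design of the array, rose by 4.69 to 4.81 on the log2 scale in HESKOL livers, and had log2 changes of 2.31 to 2.51 in WT livers. Of these, A_52_P483101, A_52_P483104 and A_52_P483105 start within 80 bases of each other, so they read nearly the same stretch. Both Pnpla2 probes rose in HESKOL livers, by 2.25 and 2.32. The probe that stood for Lpl passed (-1.85), whereas the second one, with a log2 change of -1.68, did not (limma adjusted p = 0.0620). The 4 Lpin2 probes all rose in HESKOL livers but by different amounts. The log2 change was 1.83 for A_51_P256323, 2.60 for A_51_P370438, 2.66 for A_51_P483081 and 3.75 for A_52_P397786. The last 2 of these, designed on other complementary DNAs of the locus, lie over 30 kb upstream of the first and were dim, A_52_P397786 being above background on 10 of 12 arrays. The brightest probe, which stood for the gene, gave the smallest Lpin2 change.

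Of the second probes, 3 are shown, each of which reads another stretch of the message than the probe that stood for the gene. Each is a 60-base oligonucleotide with a reading frame free of stop codons, and A_51_P370438 spans 367 bases of the genome and so crosses a splice junction. In HESKOL livers Pnpla2 rose by 2.32 on its sequence and Lpin2 by 2.60, whereas Lpl had a log2 change of -1.68.
Pnpla2, A_52_P681771, mm7 chr7:137876465-137876524, plus strand: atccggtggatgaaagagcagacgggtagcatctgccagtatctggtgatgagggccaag
Lpin2, A_51_P370438, mm7 chr17:69525846-69526212, plus strand: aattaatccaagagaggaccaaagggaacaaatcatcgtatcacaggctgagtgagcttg
Lpl, A_52_P257812, mm7 chr8:67355909-67355968, plus strand: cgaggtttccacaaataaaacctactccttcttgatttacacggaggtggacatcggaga

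**Figure D4:**
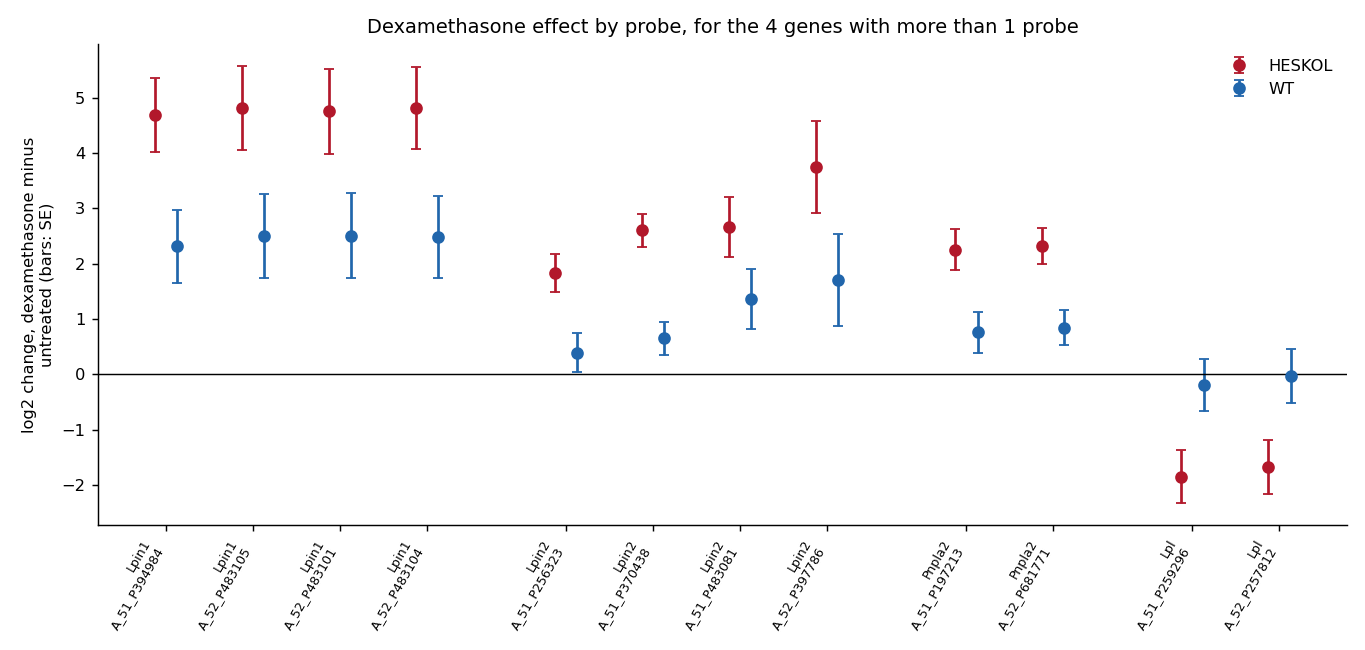
Log2 change with dexamethasone, treated minus untreated (vertical axis), for each probe of Lpin1, Lpin2, Pnpla2 and Lpl in HESKOL (red) and WT (blue) livers; bars are SEs. The 4 Lpin1 probes lie between 4.69 and 4.81 in HESKOL livers, whereas the 4 Lpin2 probes spread from 1.83 to 3.75.

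The probes that stood for the genes lie, on the mm7 design, at chr6:113585627-113585686 for Cidec, chr14:50622503-50622562 for Cideb, chr1:192825383-192825442 for G0s2, chr7:137877295-137877354 for Pnpla2 and chr15:84271714-84271773 for Pnpla3. Those of Lpin1 and Lpin2 lie at chr12:16590760-16590818 and chr17:69529021-69529080, and those of Angptl4 and Lpl at chr17:31849774-31849833 and chr8:67361126-67361185. Exon and UTR annotation of that build was not used here.

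Promoter sequence from RefSeq (build GRCm38.p6) was matched by symbol for 7 of the 10 genes, with 10 promoters in all. The 250 bases before each start were searched on both strands for the half-site of the glucocorticoid receptor, AGAACA, and for the half-site shared by PPAR and RXR, AGGTCA, which do not overlap each other in any window printed here. Of 32851 promoters in the table, 16.1% hold the first and 14% the second. Of the 10 promoters of these genes, 3 hold the first, those of Lpin1, Cideb and 1 of the 3 of Lpin2, and 1 holds the second, that of Lpin1. A pair of receptor half-sites as an inverted repeat with a 3-base gap was in none of the 10, and in 0.00913% of all promoters. The windows are shown for Lpin1, Cidec and Pnpla2, which rose together in HESKOL livers, and for G0s2, which fell; capitals mark a half-site on either strand, and each window is read in the direction of the gene. In Lpin1 the receptor half-site is 163 to 158 bases and the PPAR and RXR half-site 74 to 69 bases before the start. In the windows of Cidec, Pnpla2 and G0s2 neither run of letters occurs.
Lpin1, chr12:16610967-16611216, minus strand: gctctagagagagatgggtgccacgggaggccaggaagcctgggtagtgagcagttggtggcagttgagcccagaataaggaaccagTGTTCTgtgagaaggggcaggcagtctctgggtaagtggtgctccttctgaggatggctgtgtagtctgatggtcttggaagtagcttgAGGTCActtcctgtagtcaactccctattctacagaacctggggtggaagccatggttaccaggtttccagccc
Cidec, chr6:113435761-113436010, minus strand: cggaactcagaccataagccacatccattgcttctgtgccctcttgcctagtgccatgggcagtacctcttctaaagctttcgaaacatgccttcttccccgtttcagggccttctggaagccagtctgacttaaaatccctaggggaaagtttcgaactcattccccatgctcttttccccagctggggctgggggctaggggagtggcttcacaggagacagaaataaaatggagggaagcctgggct
Pnpla2, chr7:141454938-141455187, plus strand: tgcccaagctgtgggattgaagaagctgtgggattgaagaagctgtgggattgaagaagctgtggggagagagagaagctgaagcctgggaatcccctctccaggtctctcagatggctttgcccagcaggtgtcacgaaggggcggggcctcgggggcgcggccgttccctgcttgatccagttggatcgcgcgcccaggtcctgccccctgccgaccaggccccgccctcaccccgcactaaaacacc
G0s2, chr1:193273189-193273438, minus strand: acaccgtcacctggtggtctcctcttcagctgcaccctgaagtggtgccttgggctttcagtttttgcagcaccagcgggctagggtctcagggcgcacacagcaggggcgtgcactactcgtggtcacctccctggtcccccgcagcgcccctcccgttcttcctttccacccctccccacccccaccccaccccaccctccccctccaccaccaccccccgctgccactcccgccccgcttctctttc

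Other genes of the same pathways were taken from 4 lists. In HESKOL livers 3 of 11 tested genes of the droplet coat and of droplet formation rose with dexamethasone, and the others did not pass (median log2 change 0.31). These were the perilipins Plin4 (log2 change 4.51, limma adjusted p = 0.0020) and Plin5 (2.95, limma adjusted p = 0.0122), which coat droplets, and Hsd17b13 (1.02, limma adjusted p = 0.0176), a droplet protein of liver. Plin2, the main droplet coat of hepatocytes, had a log2 change of -0.60 (limma adjusted p = 0.467). Of 10 genes of lipid hydrolysis inside the cell, 1 passed, the carboxylesterase gene Ces1g, which fell by 2.06 (limma adjusted p = 0.0121; list median -0.32). Abhd5, which encodes the coactivator of the lipase made from Pnpla2, had a log2 change of 0.21 (limma adjusted p = 0.790). With slide as a block none of the 4 calls held, and the log2 changes were 2.45 for Plin4, 1.94 for Plin5, 1.03 for Hsd17b13 and -1.13 for Ces1g. Plin4 kept its call in each of the 12 fits with 1 array left out, whereas Plin5, Hsd17b13 and Ces1g lost theirs in 3, 4 and 2 of them, those without HESKOL untreated replicate 1 or 2 and, except for Ces1g, without HESKOL dexamethasone replicate 2 (for Hsd17b13 also 3).

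Of 11 genes of glycerolipid synthesis, 3 rose in HESKOL livers, all of which act before the lipin step. They were the acyltransferase genes Gpat4 (log2 change 1.45, limma adjusted p = 0.0189), Agpat3 (1.12, limma adjusted p = 0.0402) and Gpat3 (1.00, limma adjusted p = 0.0352), and the list had a median of 0.59. With slide as a block none of these 3 passed, and their log2 changes were 1.27, 1.10 and 0.53. Gpat4, Agpat3 and Gpat3 lost their calls in 1, 4 and 3 of the 11 other settings, that block included. They lost their calls in 3, 5 and 5 of the 12 fits with 1 array left out, each time without HESKOL dexamethasone replicate 2 or HESKOL untreated replicate 1 or 2, for Agpat3 and Gpat3 also without WT untreated replicate 2, for Agpat3 without HESKOL dexamethasone replicate 3 and for Gpat3 without HESKOL dexamethasone replicate 1. Dgat1 and Dgat2, which make triglyceride from diacylglycerol, had log2 changes of 0.59 and 0.24 and did not pass. None of 10 tested genes of lipolysis in plasma and lipid uptake passed (median 0.06), and 0 of these had an unadjusted limma p under 0.05. In WT livers no gene of the 4 lists passed with all arrays in the fit, and Plin4 came nearest (2.89, limma adjusted p = 0.0809). Without WT dexamethasone replicate 1, 3 genes passed: Plin4 (3.58, limma adjusted p = 0.0022) and Plin5 (1.73, limma adjusted p = 0.0167) were higher, and Gpam, an acyltransferase of the first step of glycerolipid synthesis, was lower (-1.45, limma adjusted p = 0.0184). In that fit 1095 of all 18703 tested genes passed in WT livers, against 37 with all arrays. After dexamethasone, Gpat3 was higher in HESKOL than in WT livers (log2 difference 1.36, limma adjusted p = 0.0346), the 1 gene of the 4 lists that passed between the genotypes. This call was lost in 5 of 11 other settings, among them slide as a block (1.11, limma adjusted p = 0.335), and in 6 of the 12 fits with 1 array left out: HESKOL dexamethasone replicate 1 or 2, WT dexamethasone replicate 2, HESKOL untreated replicate 1 or 2, or WT untreated replicate 2. Plin1 did not pass the brightness filter, and Angptl8 had no probe by that name.

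**Figure D5:**
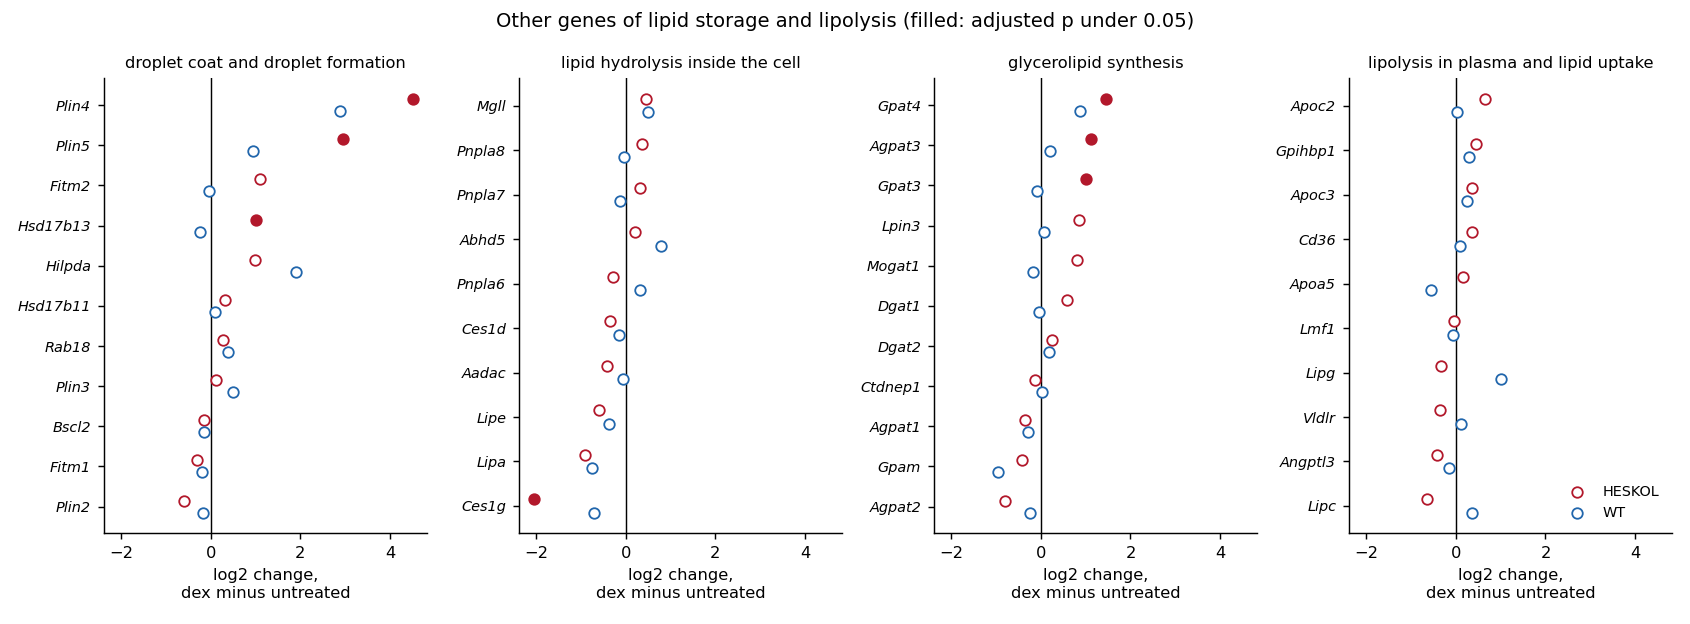
Log2 change with dexamethasone, treated minus untreated (horizontal axis), for the tested genes of 4 pathway lists in HESKOL (red) and WT (blue) livers; filled points have a limma adjusted p under 0.05. Plin4 at 4.51 and Plin5 at 2.95 lie farthest to the right, Ces1g at -2.06 lies farthest to the left, and no WT point is filled, with all 12 arrays in the fit.

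Several genes named above are also strongly expressed in fat. Of 6 adipocyte markers 2 were bright enough to be tested. Fabp4, which capillary endothelium and macrophages express too, rose with dexamethasone in HESKOL livers (log2 change 1.91, limma adjusted p = 0.0175), by 1.00 with slide as a block. Cfd had a log2 change of 1.36 there (limma adjusted p = 0.635), and of 4.50 with slide as a block. Its levels were widely spread, from -1.64 to 3.20 in HESKOL dexamethasone and from -3.52 to 1.49 in HESKOL untreated livers. The mean level of these 2 markers ran from 1.04 to 3.95 in HESKOL dexamethasone and from -0.30 to 1.69 in HESKOL untreated livers. It ran from 0.83 to 2.21 in WT dexamethasone and from -0.83 to 0.53 in WT untreated livers. The defining adipocyte genes were near background: Lep was well above it on none of the 12 arrays, Retn on 2 WT untreated arrays, Adipoq on 1 HESKOL dexamethasone and 2 WT untreated arrays, and Plin1 on 2 HESKOL dexamethasone, 1 HESKOL untreated, 1 WT dexamethasone and 2 WT untreated arrays. All 7 Kupffer cell markers had negative changes in HESKOL livers (median -0.90; with slide as a block 5 were negative, median -0.30, and Adgre1 was -0.81) and 1, Adgre1, fell past the threshold (-1.60, limma adjusted p = 0.0403). Their mean level ran from 1.47 to 2.49 in HESKOL dexamethasone and from 2.38 to 3.25 in HESKOL untreated livers. All 5 lymphocyte markers had negative changes (median -1.08; with slide as a block 2 were negative, median 0.03, and Cd79a was -0.38) and 1, Cd79a, fell (-1.51, limma adjusted p = 0.0391), with mean levels from -4.75 to -4.00 in HESKOL dexamethasone and from -3.22 to -2.72 in HESKOL untreated livers.

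The mean of the 6 hepatocyte markers ran from 6.52 to 6.81 in HESKOL dexamethasone and from 6.09 to 6.79 in HESKOL untreated livers. Of these 6, Cps1 rose (1.37, limma adjusted p = 0.0337) and Ttr fell (-1.54, limma adjusted p = 0.0139), and with slide as a block they were 1.17 and -0.49. Of 5 endothelial markers, Lyve1 rose in HESKOL livers (2.62, limma adjusted p = 0.0025) and in WT livers (2.22, limma adjusted p = 0.0308), and Kdr fell in HESKOL livers (-1.56, limma adjusted p = 0.0258). With slide as a block Lyve1 was 1.29 in HESKOL and 1.40 in WT livers, and Kdr was -0.28. The mean of the 5 endothelial markers ran from 1.09 to 1.35 in HESKOL dexamethasone, from 0.98 to 1.12 in HESKOL untreated, from 0.99 to 1.32 in WT dexamethasone and from 0.76 to 0.77 in WT untreated livers. None of 4 stellate cell markers passed (median log2 change -0.30 in HESKOL livers), and their mean ran from -1.08 to -0.41 in HESKOL dexamethasone and from -0.60 to 0.02 in HESKOL untreated livers. None of the marker calls in either genotype held with slide as a block. Of the 11 other settings, that block included, Cps1 lost its call in HESKOL livers in 4, and Adgre1 and Cd79a in 3 each. Kdr lost its call there in 2 settings, and Ttr, Fabp4 and Lyve1 in 1 each. In WT livers Lyve1 lost its call in 5 of the 11 settings. With 1 array left out, Lyve1 kept its call in HESKOL livers in each of the 12 fits but lost it in WT livers in 8 of them, and Ttr, Fabp4, Cps1, Kdr, Adgre1 and Cd79a lost theirs in 2, 4, 6, 6, 7 and 8 of the 12. Each of these 6 calls was lost without HESKOL untreated replicate 1, and the Lyve1 call in WT livers without any 1 of the 6 untreated livers, HESKOL dexamethasone replicate 1 or WT dexamethasone replicate 3. Without WT dexamethasone replicate 1, 3 of the 7 Kupffer cell and 4 of the 5 lymphocyte markers passed as lower in HESKOL livers. In that fit 1529 of all 18703 tested genes passed as lower there, against 786 with all arrays. In WT livers 6 of the 7 Kupffer cell and all 5 lymphocyte markers had negative changes too (median -0.32 and -0.48), and none passed. With slide as a block 0 of the 7 and 2 of the 5 were negative in WT livers. Macrophages also make Lpl, and in whole tissue fewer cells of a type and less RNA per cell cannot be told apart; the part of these cell types in the changes above was not tested.

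The genes whose levels over the 12 arrays were most like those of each of the 7 called genes were looked up among 14603 tested genes with a symbol, as a description; the arrays share the 4 groups. The closest to Cidec was Slc25a33 (Pearson r = 0.97), followed by Slc20a1 and Kif21a, and the closest to Cidea was Npnt (0.97), followed by Fbxl13 and Ccdc86. Closest to Lpin1 were Sik3 (0.97), Fmn2 and Eif3b, and closest to Lpin2 were Asl (0.97), Olfr187 and Cps1, Asl and Cps1 being enzymes of the urea cycle. Pnpla2 was most like Shld1 (0.99), Mios and Ttpa. G0s2 was most like Inhbe (0.98), Ttl and Toe1, and Inhbe had log2 changes with dexamethasone of -2.45 in HESKOL and -3.02 in WT livers. Lpl was most like Scd1 (0.90), which encodes a fatty acid desaturase, followed by Klk1b21 and Adam19, and Scd1 had log2 changes with dexamethasone of -1.51 in HESKOL and 0.22 in WT livers.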

How the data were processed

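Total RNA of 12 livers, 1 mouse per array, was labelled with Cy3 and read on one-colour arrays, per the labels' protocols. The deposited array files hold spot intensity on a linear scale, from which Agilent Feature Extraction 9.5.3.1 had already subtracted background, per the file headers (9.5 per the submitters' processing notes). The deposited series table held the same intensity values. The labels give no further normalization.

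Here each array's log2 processed signal was scaled by its 75th percentile over non-control spots. Outlier spots were left out, saturated spots kept and spots of one probe averaged. The brightest probe stood for its gene, and the other probes of a member were fitted on their own, a step chosen after seeing the data. Group means over all 12 arrays were fitted with limma 3.58.1 (lmFit and eBayes; R 4.3.3), on 8 residual degrees of freedom and a prior of 3.12, and p-values were Benjamini-Hochberg adjusted over 18703 genes per contrast, threshold 0.05. The fit was also run on simulated arrays with independent noise and known changes in the HESKOL dexamethasone group. These held no slide effect and no array that stood apart, so that run does not bear on either. The number of arrays limits the precision. Of 41174 probes, 22951 were named by accession, 9768 by symbol or synonym, 1881 kept the file's name and 6574 had none.

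The 10 genes and the lists were chosen with earlier results of these data known. Named besides them were Hes1, up to 3 passing genes per list and contrast with the largest change, and the 3 genes with the highest Pearson r to each called member; Plin2, Abhd5, Dgat1, Dgat2, Plin4, Plin5 and Gpam in WT livers, and the called marker genes were added after their values were seen. Alternatives were 11 settings (quantile, median scaling, normexp with an offset of 50, the deposited table, no brightness filter, mean of all probes, robust estimation with an intensity trend, the replicate number or the slide as a fixed block, the slide as a random one, and only the groups compared) and each of the 12 arrays left out.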

Additional observations from a re-analysis of the deposited data

How the results depend on the processing

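The 10 genes were recomputed under 11 other settings and with each array left out. Among these settings, the deposited table holds the same values as the array files and so could not change a call. For a gene with 1 probe, the mean of all probes leaves its own values unchanged. The count of genes past the threshold for dexamethasone in HESKOL livers was 7, and it was 0 with slide as a fixed block and 4 to 8 with 1 array left out. It was 5 with normexp, 5 without the brightness filter and 6 with only the groups compared. Without the filter or with only the groups compared, neither G0s2 nor Lpl passed. With slide as a random block or the replicate block the count was 8. The correlation within slides used by the random block was slightly negative, -0.06, so that fit does not take out a slide effect. For HESKOL against WT livers after dexamethasone the count was 1, and it was 0 without the brightness filter, with slide as a fixed block, with only the groups compared and with the replicate block, and 0 to 1 with 1 array left out. For dexamethasone in WT livers it was 0, and 0 to 1 with 1 array left out, the 1 being Lpin1 without WT dexamethasone replicate 1. The count of all genes that passed ran from 0 to 2803 for dexamethasone in HESKOL livers (1464 as reported), from 0 to 1095 in WT livers (37) and from 3 to 447 between the treated genotypes (213), the highest of each without WT dexamethasone replicate 1; it ran from 0 to 13 for the interaction (3). The log2 changes that changed sign were these. For dexamethasone in HESKOL livers, Cideb was 0.0906 with median scaling, 0.72 with the slide block and -0.21 to 0.17 with 1 array left out. For dexamethasone in WT livers the slide block gave 0.25 for Cideb, -0.0304 for Angptl4 and 0.60 for Lpl, and leaving out 1 array gave -0.32 to 0.0588, -0.21 to 1.56 and -0.50 to 0.14 for these genes. Between untreated genotypes, Cidec was 0.00421 with the slide block, Pnpla2 was -0.0424 with median scaling and -0.21 to 0.32 with 1 array left out, and Cideb was -0.0368 to 0.25 with 1 array left out. Between treated genotypes G0s2 was -0.58 to 1.02 with 1 array left out. For the interaction, G0s2 was 0.28 with the slide block and -0.97 to 0.64 with 1 array left out, and Cideb was -0.0726 to 0.34. The cause of these changes was not tested. Over all genes, the median change with dexamethasone in HESKOL livers moved by 0.10 under median scaling, and normexp moved that in WT livers by 0.20 and that between treated genotypes by -0.23. Of 18 same-numbered pairs of livers, 6 had deviations that correlated above 0.1 (range -0.40 to 0.62). Differently numbered pairs were not computed beside them, so this does not settle whether the replicate numbers pair the livers. With the replicate block Angptl4 passed in HESKOL livers (limma adjusted p = 0.0479) and Cidec did not between treated genotypes. Dim probes, above all Pnpla3 and Cidea, are limited by their signal over background.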
